A study of Mus musculus with 6 samples.

Results

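The brush border hydrolases are enzymes anchored in the microvillus membrane of enterocytes, where they complete digestion at the cell surface. The 8 genes described here are the disaccharidases Sis, Mgam, Treh and Lct, the intestinal alkaline phosphatase Alpi, and the peptidases Anpep, Mme and Dpp4. Their intervals were all called intervals, of any region class, whose gene column held 1 of the 8 symbols: 46 of the 42851 intervals of the 6 peak lists. The intervals were selected on the authors' calls, and the genes were chosen by function with earlier results of these lists known, so calls are described and not tested.

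Acetylation of lysine 9 of histone H3 (H3K9ac) was profiled by chromatin immunoprecipitation and sequencing in the epithelium of the distal intestine, using C57BL/6 mice throughout. The groups were germ-free mice, mice monoassociated with Escherichia coli (carrying that bacterium as their only microbe) and conventionally housed mice, with 2 libraries per group. The antibody was the same for all 6 libraries, and the labels give no age. Nothing in them ties a library to an animal of its own, so replicate spread may be technical only. For replicates 1 and 2 the list lengths were 4430 and 17094 intervals (germ-free), 1988 and 870 (E. coli-monoassociated) and 3117 and 15352 (conventional), so list length differed within groups as well as between them. The labels give single-end reads of 50 bp. The depth of each library is not known beyond a background pileup of 0.381 to 0.733 reads, inferred here from the steps of the fold.

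The mark is laid down by histone acetyltransferases, removed by histone deacetylases, and lies on the nucleosomes around the start sites of active genes. In the small intestine, sucrase-isomaltase and maltase-glucoamylase split starch fragments and sucrose, trehalase splits trehalose and lactase splits milk sugar, and lactase activity falls after weaning in most mammals. Homeobox factors of the Cdx and Hnf1 families and GATA factors are known regulators of Sis and Lct. Alkaline phosphatase removes phosphate from luminal nucleotides and bacterial lipopolysaccharide. The peptidases trim peptides so that amino acids and short peptides can be taken up.

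Of the 8 genes, 7 had an interval in at least 1 library, against 44.3% of 21900 protein-coding genes, and Lct had none. Anpep alone was called in all 6 libraries (1.56% of protein-coding genes). Dpp4 was called in 5, and 3.9% of protein-coding genes were called in 5 or more. Mgam was called in 4 and Sis in 3, and Treh, Alpi and Mme were called in conventional replicate 2 alone (6.69% of protein-coding genes). By library, 4 of the 8 were called in germ-free replicate 1 (14.4% of protein-coding genes) and 3 in germ-free replicate 2 (34.6%). For E. coli-monoassociated replicates 1 and 2 the counts were 3 (6.45%) and 1 (2.58%), and for the conventional replicates 3 (10.6%) and 7 (37.5%). Both libraries of a group had an interval for Mgam, Anpep and Dpp4 among germ-free (12.5% of protein-coding genes), for Anpep among E. coli-monoassociated (1.74%) and for Sis, Anpep and Dpp4 among conventional mice (10.4%). The germ-free replicate 2 count was near its background and the other library counts were above theirs. In E. coli-monoassociated replicate 2 this rested on Anpep alone, since any 1 of the 8 genes exceeds a share of 2.58%. The genes were chosen with earlier results known, so a count above background does not set them apart. With 8 genes, a single gene moves a share by 12.5 percentage points. Conventional replicate 2 supplied 23 of the 46 intervals, or 50.0%, whereas it held 35.8% of all intervals. Without it, 4 of the 8 genes had an interval in any library. Chromatin of many cells was pooled in each library, so fewer cells with the mark and less of the mark per cell cannot be told apart.

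**Figure D1:**
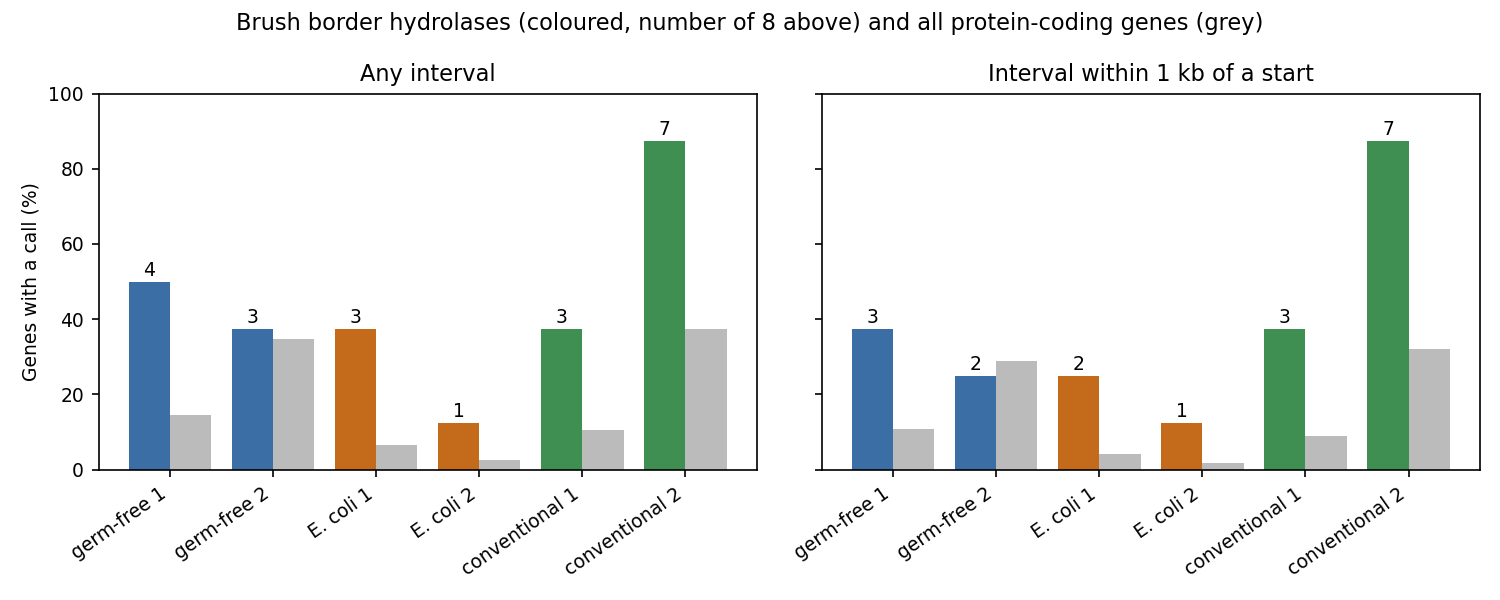
Share of genes with a called interval (vertical axis, %) in each library (horizontal axis), for the 8 brush border hydrolases (coloured bars, number of genes above each) and all 21900 protein-coding genes (grey bars). The left panel counts any interval and the right panel intervals within 1 kb of a start site. The coloured bar is highest in conventional replicate 2, with 7 genes, and lowest in E. coli-monoassociated replicate 2, with 1 gene.

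Counted at promoters, meaning within 1 kb of a start site, the numbers were 3 and 2 in the germ-free libraries (10.7% and 28.9% of protein-coding genes). For E. coli-monoassociated mice they were 2 and 1 (4.13% and 1.84%), and for conventional mice 3 and 7 (8.91% and 32%). Anpep had a promoter interval in all 6 libraries (0.977% of protein-coding genes), Anpep and Dpp4 in at least 5 (2.89%), and Treh, Alpi and Mme in conventional replicate 2 alone (5.96%). Anpep and Dpp4 had a promoter interval in both germ-free libraries (9.91% of protein-coding genes). Anpep had one in both E. coli-monoassociated libraries (1.11%). Anpep, Dpp4 and Sis had one in both conventional libraries (8.83%). Calls in both germ-free lists with none in the E. coli-monoassociated lists were found for 0 members, against 7.8% of protein-coding genes by any interval and 6.48% by promoter interval. The reverse pattern was found in 0 protein-coding genes. Calls in both germ-free and neither conventional list were also found for 0 members (0.338% of protein-coding genes by any interval, 0.251% by promoter interval), as were calls in both E. coli-monoassociated and neither conventional list (0.0183% by any interval, 0 by promoter interval).

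Most of these intervals lay downstream of the start site, as did most intervals listed for 1 protein-coding gene. They measured 146 to 1415 bp, 15 of the 46 were within 6 bp of the shortest, and 4 had more than 1 summit listed. At the weak end, 6 were at the lowest pileup of their list. The shortest interval of each whole list was 146 or 147 bp. Shares over all intervals were not set beside these 3 counts, so they do not set the members apart. The lowest -log10 q of a member interval was 1.59 (Dpp4) and 2.63 (Dpp4) in the germ-free lists, 2.28 (Anpep) and 1.35 (Anpep) in the E. coli-monoassociated lists, and 1.72 (Sis) and 1.49 (Dpp4) in the conventional lists. Values just outside a list's limit are not in the lists. By the authors' class 24 were at a promoter (52.2%), 14 in an intron (30.4%), 5 in an exon (10.9%) and 3 upstream (6.52%). Of the intervals listed for 1 protein-coding gene, 51.2 to 74.0% were at a promoter, 13.8 to 24.9% in an intron, 2.997 to 7.48% in an exon and 3.23 to 7.84% upstream, by library. Downstream of the start site lay 36 of the 46 (78.3%), against 73.0 to 84.5% of the same intervals. Merged over libraries they made 27 regions. Of these, 20 were called in 1 library (74.1%, against 65.6% of all 23987 merged regions), and 15 of the 20 came from conventional replicate 2 alone (55.6% of the 27 regions, against 25.8% of all merged regions). Of the 27, 7 were called in at least 2 libraries (34.4% of all merged regions) and 1, at Anpep, in all 6 (1.58%). In both conventional libraries 1 region, at Sis, was called but in neither germ-free (0.609%), in neither E. coli-monoassociated (5.83%) and in none of the other 4 (0.575%). No member region was called in both germ-free and neither conventional (0.763%), in both E. coli-monoassociated and neither germ-free (0.0125%) or in both E. coli-monoassociated and neither conventional library (0.0792%).

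**Figure D2:**
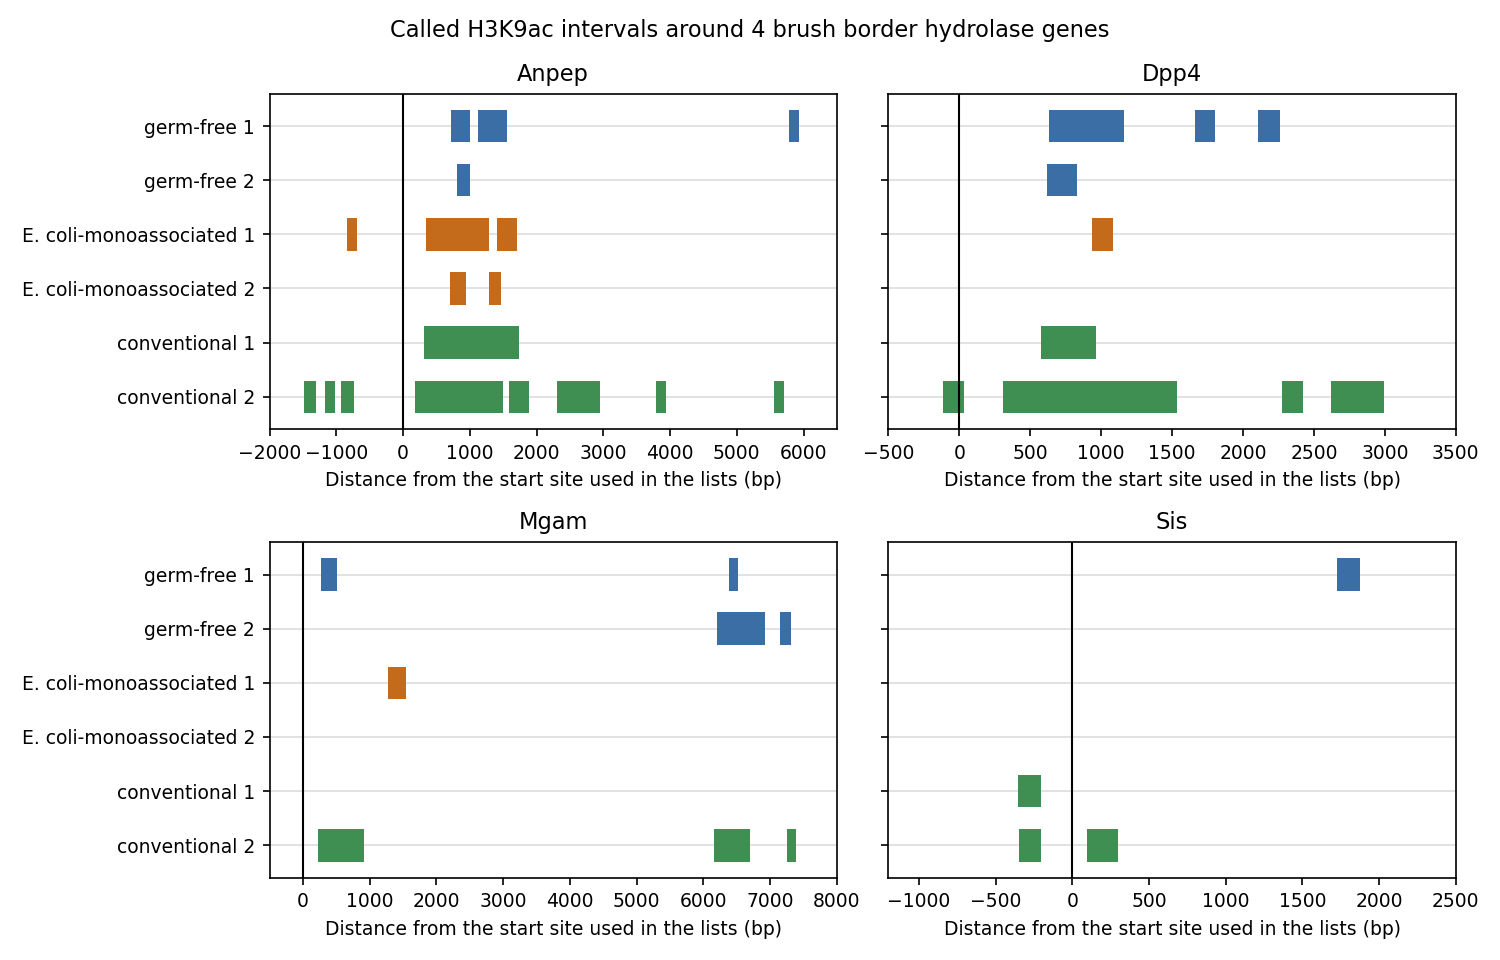
Called intervals (bars, coloured by group) in each library (rows) around Anpep, Dpp4, Mgam and Sis. The horizontal axis is the distance in bp from the start site used in the lists (vertical line), positive into the gene, and its range differs between panels. Anpep has bars downstream of its start in all 6 rows, and Sis has bars upstream of its start in the 2 conventional rows.

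Anpep encodes aminopeptidase N, which removes N-terminal amino acids from peptides, and it held 18 of the 46 intervals and 46.4% of the 15831 called bp. Its strongest interval had a summit pileup (extended reads over the summit) of 18 in germ-free replicate 1 and 7 in germ-free replicate 2, the latter inferred from the fold. The pileup was 15 and 10 for E. coli-monoassociated mice and 14 and 15 for conventional mice. The lowest pileups in these lists were 6, 5, 6, 5, 5 and 4, in the same order, so Anpep was well above the lowest listed values except in germ-free replicate 2. The authors' fold enrichment of those intervals was 11.0 and 5.07 in the germ-free lists, 9.47 and 7.84 in the E. coli-monoassociated lists and 10.6 and 11.6 in the conventional lists. Fold and pileup belong to their own list and depth, and are not compared between libraries.

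At Anpep (chromosome 7, minus strand, start site at 79842352 in the lists, mm10) the intervals of all 6 libraries shared 139 bp, from 79841404 to 79841542, which lie 810 to 948 bp inside the gene. Around this core, a region from 79840467 to 79842176 held 10 intervals. In conventional replicate 1 a single interval of 1415 bp with 4 summits covered most of it, and in conventional replicate 2 an interval of 1321 bp with 4 summits did. That library also had a separate interval of 294 bp there. E. coli-monoassociated replicate 1 had intervals of 289 bp and of 947 bp with 3 summits, and E. coli-monoassociated replicate 2 had intervals of 180 and 249 bp. Germ-free replicate 1 had intervals of 435 and 281 bp, and germ-free replicate 2 had 1 interval of 186 bp. A region 692 to 923 bp upstream of the start was called in E. coli-monoassociated replicate 1 and conventional replicate 2. In all, 862 and 186 bp were called at Anpep in the germ-free libraries, 1387 and 429 bp for E. coli-monoassociated mice and 1415 and 3072 bp for conventional mice. These lengths exceeded those of 94.5%, 12.3%, 96.9%, 77.7%, 97.5% and 98.5% of called genes in the same lists. Anpep thus ranked high in called length in every list but that of germ-free replicate 2.

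The Anpep start differed between annotations. RefSeq (GRCm38.p6) places it at 79848210, which is 5858 bp upstream of the start in the lists, and the called base nearest to the RefSeq start was 4376 bp away. The human gene is known to use separate promoters in epithelial and in myeloid cells. With RefSeq start sites Anpep had no promoter interval in any library, so no member had one in both E. coli-monoassociated libraries. By a rule on likeness of within-list percentile over the 6 libraries, the nearest of the other 341 genes called in all 6 were Casz1, Clec2h and Dpy19l2. Their mean absolute differences from Anpep were 9.67, 10.1 and 10.7 percentage points. In germ-free replicate 2 they stood at percentiles 90.0, 72.8 and 90.0, against 40.1 for Anpep, so they did not share its lower place in that list.

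**Figure D3:**
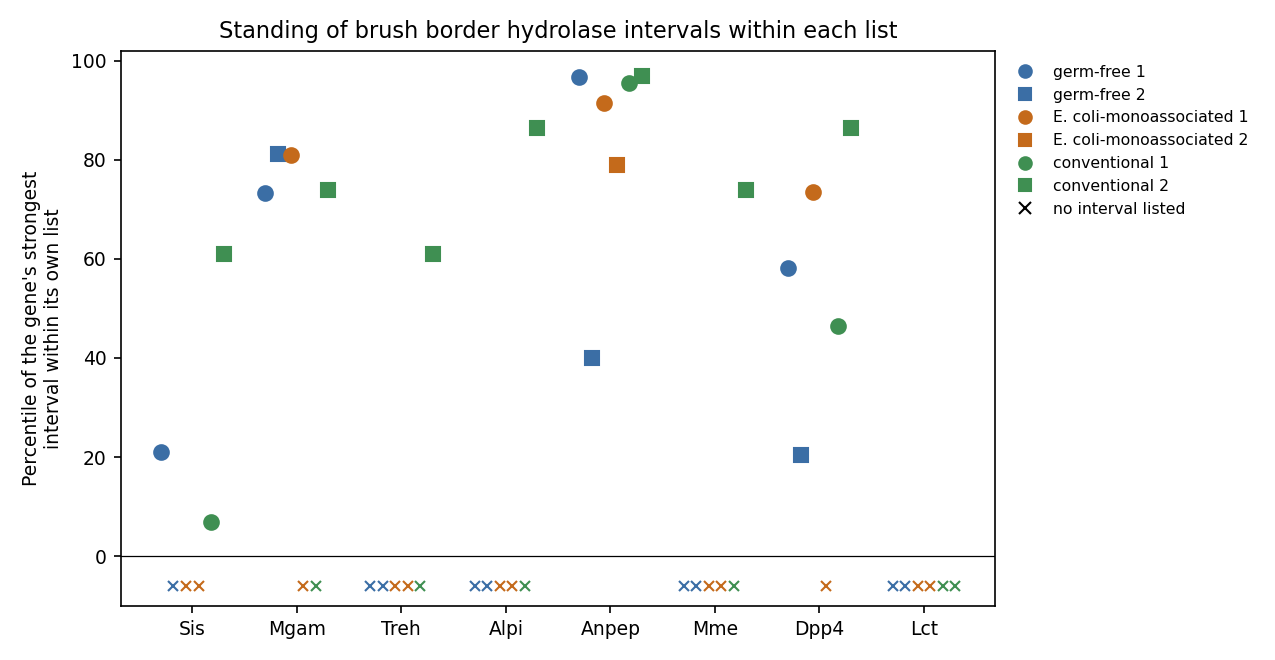
Percentile of each gene's strongest interval, by -log10 p, within its own list (vertical axis, 100 is the most significant interval), for each of the 8 genes (horizontal axis) and 6 libraries (colour for the group, circle for replicate 1 and square for replicate 2). Crosses mark libraries with no interval for the gene. Anpep lies between 78.9 and 96.9 in 5 lists and at 40.1 in germ-free replicate 2.

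Dpp4 encodes dipeptidyl peptidase 4, which cleaves dipeptides from peptides with proline or alanine in the second position and inactivates incretin hormones. It is also carried by T cells. Its strongest interval had a pileup of 9 and 6 in the germ-free libraries, 10 in E. coli-monoassociated replicate 1, and 7 and 10 in the conventional libraries. The fold was 5.77 and 4.43, 6.51, and 5.66 and 7.97 in that order, and E. coli-monoassociated replicate 2 had no Dpp4 interval. All 5 libraries had an interval in 1 region of 1229 bp (chromosome 2, 62410697 to 62411925), 306 to 1534 bp inside the gene. The region was not 1 shared position: between the E. coli-monoassociated replicate 1 interval (62411152 to 62411297) and that of germ-free replicate 2 (62411405 to 62411614) lay 107 bp, and the long conventional replicate 2 interval spanned both. Conventional replicate 2 alone was called at the start itself, from 62412201 to 62412347, at a pileup of 4, the lowest of its list.

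Mme encodes neprilysin, a metallopeptidase that cleaves small peptides and also marks early lymphocytes and some stromal cells. It had 1 interval, in conventional replicate 2 (chromosome 3, 63295650 to 63295891, 242 bp), with a pileup of 8, a fold of 6.52 and a -log10 q of 5.97. That interval ran from 222 bp before to 19 bp after the start at 63295872. RefSeq gives Mme other starts as well, at 63295211 and 63296095.

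The sequences of Mme, Dpp4 and Alpi are shown because an interval reached into them. Each run is the 250 bases before the RefSeq start on the gene's strand, 5′ to 3′ (RefSeq, GRCm38.p6), and capitals mark the bases inside a called interval of conventional replicate 2. They are chr3:63295622-63295871 (plus strand), chr2:62412232-62412481 (minus strand) and chr1:87101607-87101856 (minus strand).
Mme: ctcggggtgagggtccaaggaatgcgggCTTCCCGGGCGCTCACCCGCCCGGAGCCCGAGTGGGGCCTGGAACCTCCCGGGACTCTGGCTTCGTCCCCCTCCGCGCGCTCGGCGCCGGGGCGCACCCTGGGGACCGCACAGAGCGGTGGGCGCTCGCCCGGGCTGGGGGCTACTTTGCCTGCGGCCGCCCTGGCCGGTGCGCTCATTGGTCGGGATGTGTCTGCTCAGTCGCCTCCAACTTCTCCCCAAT
Dpp4: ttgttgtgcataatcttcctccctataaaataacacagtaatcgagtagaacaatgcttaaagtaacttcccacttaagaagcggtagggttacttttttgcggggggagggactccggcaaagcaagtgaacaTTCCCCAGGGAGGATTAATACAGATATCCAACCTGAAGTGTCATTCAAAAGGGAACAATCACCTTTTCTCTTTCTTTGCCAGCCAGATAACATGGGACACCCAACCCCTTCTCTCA
Alpi: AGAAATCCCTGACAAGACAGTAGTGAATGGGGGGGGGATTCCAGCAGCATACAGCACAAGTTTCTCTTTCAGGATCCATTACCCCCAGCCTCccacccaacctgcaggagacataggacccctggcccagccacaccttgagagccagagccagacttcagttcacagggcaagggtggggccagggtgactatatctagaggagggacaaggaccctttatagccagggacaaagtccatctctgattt
The capitals cover 222, 116 and 92 of the 250 bases, and in Alpi they are the bases farthest from the start.

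In the window of 250 bases before and 50 after the start, G and C made up 73.0% at Mme, 45.3% at Dpp4 and 56.3% at Alpi, against a median of 52.7% over 32851 RefSeq windows of that length. CG dinucleotides numbered 32, 4 and 1, against a median of 7. Starts of high and of low GC content were thus among those called, and the 28 CG dinucleotides of the upstream RefSeq start of Anpep (72.3% G and C) lay outside any interval.

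Alpi encodes the alkaline phosphatase of the small intestine. Conventional replicate 2 had 2 intervals there (chromosome 1, start site at 87101606, minus strand). The stronger one lay upstream, from 87101765 to 87102246, with a pileup of 10, a fold of 7.97 and a -log10 q of 8.57. The other lay 123 to 358 bp inside the gene, with a pileup of 7. At percentile 86.4 of its list, the upstream interval equalled the strongest of Dpp4 and was below that of Anpep (96.9). No other library had an Alpi call.

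Sis encodes sucrase-isomaltase, which splits sucrose and isomaltose, and was the single member whose promoter was called in both conventional libraries and in none of the other 4, as for 0.269% of protein-coding genes. The intervals were nearly the same bases in both: 72967071 to 72967220 in conventional replicate 1 and 72967070 to 72967216 in conventional replicate 2, with 146 bp in common (chromosome 3, minus strand). Their pileups were 5 and 7 and their folds 4.25 and 5.79. The first of these was at the lowest pileup of its list, with a -log10 q of 1.72. Conventional replicate 2 had another interval, 94 to 293 bp inside the gene, with a pileup of 6. Germ-free replicate 1 had an interval 1728 to 1873 bp inside the gene, with a pileup of 7 and a fold of 4.62, so by any interval 0 members were called in both conventional and neither germ-free library (0.288% of protein-coding genes) or in none of the other 4 (0.251%). By promoter interval Sis was called in both conventional and neither germ-free library (0.297%). It was the 1 member called in both conventional and neither E. coli-monoassociated library (6% of protein-coding genes by any interval, 5.45% by promoter). At a fold of 5 or more, the conventional replicate 1 interval was lost and with it the pattern. The pattern against the germ-free libraries was also lost with a window of 2.5 kb, which takes in the germ-free replicate 1 interval.

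The start of Sis in the lists, 72966866, lies 997 bp inside that of RefSeq, 72967863. The shared conventional region was 204 to 354 bp upstream of the former and 643 to 793 bp downstream of the latter.

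Mgam encodes maltase-glucoamylase, which releases glucose from starch fragments. Its most often called place was not the promoter but an intronic region, 6152 to 6922 bp inside the gene (chromosome 6, 40634983 to 40635753, start site at 40628831, plus strand). The region was called in germ-free replicates 1 and 2 and conventional replicate 2, at pileups of 10, 10 (inferred) and 8 and folds of 6.35, 6.97 and 6.52. Both germ-free lists but no E. coli-monoassociated list thus held it, as for 6.74% of all merged regions, and it was the 1 member region of the 27 to be so. A second region 227 bp farther in was called in germ-free replicate 2 and conventional replicate 2. E. coli-monoassociated replicate 1 also had an Mgam interval, but elsewhere, at 40630102 to 40630370, 4612 bp short of the intronic region, with a pileup of 11 and a fold of 7.10.

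The promoter of Mgam was called in germ-free replicate 1, at a pileup of 7, and in conventional replicate 2, at a pileup of 6, and in no other library. Of the 8 Mgam intervals, 6 were listed together with Mir1950, a microRNA that RefSeq places on chromosome 19. In germ-free replicate 2, Mgam was the strongest of the members, at percentile 81.1 of the list, above Anpep (40.1) and Dpp4 (20.5).

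Treh encodes trehalase. It had 3 intervals, in conventional replicate 2 alone (chromosome 9, start site at 44673233, plus strand). A pair lay 155 to 312 and 427 to 582 bp inside the gene, both with a pileup of 5, a fold of 4.35 and a -log10 q of 2.497. The third, with a pileup of 7, lay 14165 to 14345 bp upstream. Lct, which encodes lactase (chromosome 1, RefSeq start at 128328318, minus strand), had no interval in any of the 6 lists. Because the lists hold no values below their limits, this does not show that the mark was absent at Lct.

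For the disaccharidase genes Sis, Mgam and Lct, the 250 bases before the RefSeq start are shown because their letters for Cdx, Hnf1 and GATA factors can be set beside the calls. No interval overlapped these runs. They are chr3:72967864-72968113 (minus strand), chr6:40628581-40628830 (plus strand) and chr1:128328319-128328568 (minus strand), and capitals mark GATAA (GATA factors), TTTATG (Cdx factors), CAAAGTCCA (Hnf4) and the palindromic Hnf1 consensus with at most 1 mismatch, on either strand.
Sis: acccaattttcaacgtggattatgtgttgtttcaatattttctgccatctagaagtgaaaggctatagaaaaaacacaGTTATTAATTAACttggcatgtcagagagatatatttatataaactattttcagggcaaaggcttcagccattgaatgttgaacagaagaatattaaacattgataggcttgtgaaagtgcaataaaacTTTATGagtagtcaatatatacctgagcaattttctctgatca
Mgam: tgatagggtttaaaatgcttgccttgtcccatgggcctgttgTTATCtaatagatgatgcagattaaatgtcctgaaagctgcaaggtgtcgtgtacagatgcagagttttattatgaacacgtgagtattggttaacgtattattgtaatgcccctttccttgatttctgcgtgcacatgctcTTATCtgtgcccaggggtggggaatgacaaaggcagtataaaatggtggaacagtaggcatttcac
Lct: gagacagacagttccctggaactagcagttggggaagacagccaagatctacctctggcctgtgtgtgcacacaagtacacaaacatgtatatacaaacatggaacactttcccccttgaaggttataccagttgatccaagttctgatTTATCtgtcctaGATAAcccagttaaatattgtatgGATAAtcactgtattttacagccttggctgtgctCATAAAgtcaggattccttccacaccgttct
In Sis the capitals are an Hnf1 match with 1 mismatch beginning 172 bases before the start and TTTATG beginning 43 bases before it. In Mgam they are TTATC, the reverse complement of GATAA, 208 and 66 bases before the start. In Lct they are the reverse complement of GATAA at 101, GATAA at 89 and 65, and the reverse complement of TTTATG at 31 bases before the start.

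Lct held 4 matches, 3 of them GATAA, and Sis and Mgam held 2 each. Lct had no call, and the calls of Sis (3 libraries) and Mgam (4) lay outside these runs. Any relation between matches and calls was not tested. Over all RefSeq windows, 25.4% held GATAA, 11.9% held TTTATG, 0.207% held the Hnf1 letters with at most 1 mismatch and 0.475% held CAAAGTCCA. GATAA stood in the windows of 3 members, Lct, Mgam and Dpp4. The Dpp4 match, 31 bases before the start, lay inside the conventional replicate 2 interval shown above. Alpi held CAAAGTCCA 19 bases and Treh its reverse complement 71 bases before the start. TATAAA stood in the windows of Sis, Mgam, Alpi and Dpp4 (13.6% of all windows) and GGGCGG in those of Mme and Anpep (35.7%). The reverse complement of TTTATG shares ATAAA with TATAAA, so matches to these can overlap. A match describes the letters in these windows and is not a binding site.

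Germ-free replicate 2 stood apart from the other 5 lists in how little of it lay at these genes. Its list also differed in form, with 17094 lines for 17094 intervals and no pileup. Each other list had more lines than intervals. A difference in how the list was made cannot be told apart from a difference in the sample. Of the 6610 kb of called sequence in germ-free replicate 2, 1282 bp were at the 8 genes (0.0194%). In germ-free replicate 1 it was 2219 bp of 1196 kb (0.186%), for E. coli-monoassociated mice 1802 bp of 562 kb (0.321%) and 429 bp of 294 kb (0.146%), and for conventional mice 1947 bp of 976 kb (0.199%) and 8152 bp of 5914 kb (0.138%). The shares in the other lists were 7.11 to 16.5 times that of germ-free replicate 2, and the reason was not tested. These shares add intervals called separately in each list and move with how much was called.

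**Figure D4:**
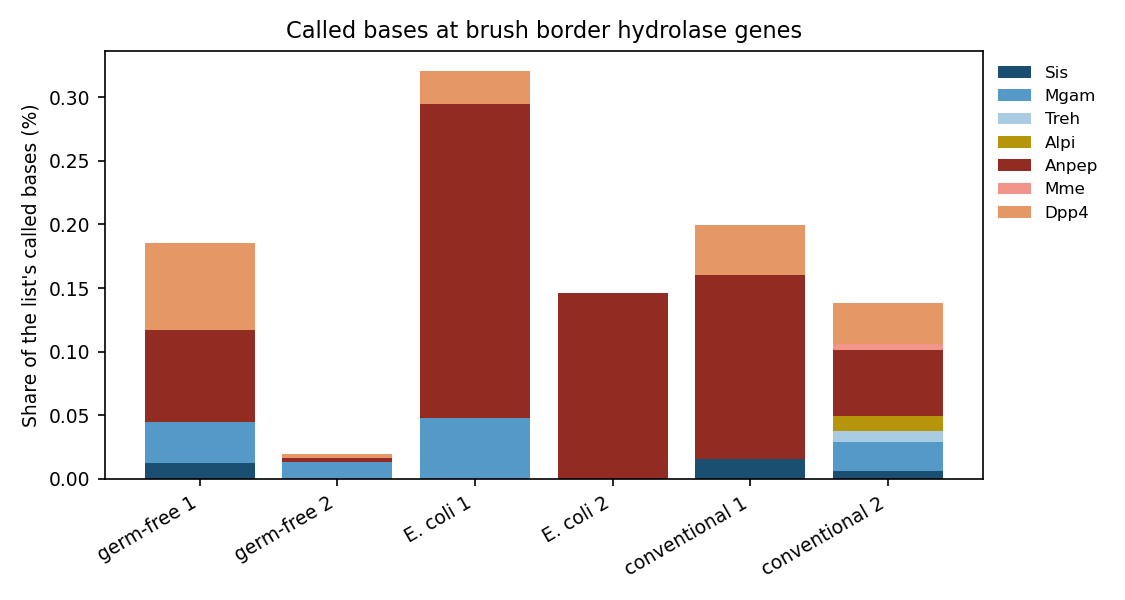
Called bases at the brush border hydrolase genes as a share of all nuclear called bases of the list (vertical axis, %), by library (horizontal axis) and gene (colours, stacked). The stack reaches 0.0194% in germ-free replicate 2 and 0.138 to 0.321% in the other 5 lists.

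Epithelial markers were called in every list. Of 7 epithelial markers, among them Vil1, Epcam and Cdx2, 4 to 7 had an interval in each library. None of 6 lymphocyte, 3 Paneth cell or 3 enteroendocrine markers was called in any library. Of 5 myeloid markers Itgam was called in germ-free replicate 2, of 6 stromal and smooth muscle markers Myh11 was called in conventional replicate 2, and the 3 endothelial markers, Pecam1, Cdh5 and Kdr, were each called in 1 or 2 libraries, none at a promoter. The goblet cell markers Muc2, Tff3 and Agr2 were all called in germ-free replicate 2, against 1 of the 3 in conventional replicate 2 and none elsewhere. By the same rule, 34.6% and 37.5% of protein-coding genes were called in these long lists, and 2.58 to 14.4% in each shorter list. With 3 to 6 markers in a class, the absence of calls from a shorter list therefore tells little. Any part of the goblet cell markers in the low share of hydrolase bases in germ-free replicate 2 was not tested.

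Of 19 other hydrolases of the brush border, 18 of which are in the RefSeq table, 14 had an interval in at least 1 library and none in all 6. By library the counts were 5 and 8 (germ-free), 1 and 0 (E. coli-monoassociated) and 4 and 13 (conventional). In the same order, 14.4%, 34.6%, 6.45%, 2.58%, 10.6% and 37.5% of protein-coding genes were called, so the library with the most calls here also had the highest share over all genes. Enpep, which encodes the glutamyl aminopeptidase, was called in 5 libraries, all but E. coli-monoassociated replicate 2 (3.9% of protein-coding genes were called in 5 or more). Enpep had a promoter interval in 2 of them, germ-free replicate 1 and conventional replicate 2. Its strongest fold was 6.93 and 9.50 in the germ-free lists, 5.33 in E. coli-monoassociated replicate 1, and 5.66 and 9.41 in the conventional lists. Naaladl1, which encodes an intestinal peptidase, had a promoter interval in both germ-free and both conventional libraries and in neither E. coli-monoassociated one. Its folds were 7.502 and 5.07 in the germ-free and 7.08 and 7.24 in the conventional lists. Conventional lists aside, 6.48% of protein-coding genes shared its promoter calls, and germ-free lists aside, 5.45% did. No share was taken for its whole pattern. The E. coli-monoassociated lists were also the shortest, with 1988 and 870 intervals, so missing calls there tell little. Ggt1 and Mep1b, chosen after their values were seen, shared the promoter pattern of Sis, with a call in both conventional libraries and in none of the other 4. The pattern was found for 0.269% of protein-coding genes. Mep1b also had an interval outside its promoter in germ-free replicate 2. The strongest folds in conventional replicates 1 and 2 were 6.37 and 5.07 for Ggt1 and 5.66 and 4.35 for Mep1b. At a fold of 5 or more, Mep1b thus lost its conventional replicate 2 call and with it the pattern. Ggt1 encodes a gamma-glutamyl transferase and Mep1b a subunit of the metallopeptidase meprin.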

How the data were processed

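H3K9ac peak lists of 6 libraries, 2 per group, were used as deposited. Reads were processed with Bowtie 1.2.0 and MACS2 2.1.1.20160309 on mm10, per the submitters' processing notes, and for the peak calling options and any input control the sources used here give nothing. The authors deposited 1 list per library, with the pileup signal at each summit, the fold enrichment, and -log10 p-values and q-values for each interval, per the file headers. Within a list, member intervals of equal pileup had equal fold and equal -log10 p, so these are not separate measures of an interval. The list of germ-free replicate 2 names 14 columns over 13 cells per line, and its values stand 1 name early. It gives no pileup, so its pileup was inferred from the steps of the fold. The background pileup of all 6 lists was inferred from those steps too.

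Lines of the same interval were merged. An interval belonged to a gene where the comma-split gene column held its symbol, and to its promoter where it lay within 1 kb of the start site used in the lists. Intervals were merged over libraries into regions where they overlapped. Of 10621 gene names, 10567 matched RefSeq (GRCm38.p6, the assembly behind mm10) and 54 did not. Shares of genes are of 21900 protein-coding RefSeq genes. Motifs were searched on both strands of 300-base RefSeq promoter windows. All 8 members were described, other hydrolases were named where at least 4 libraries called them, except Ggt1 and Mep1b, which were named after their values were seen, and the 3 genes most like Anpep were named by mean absolute difference in percentile.

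Libraries were compared by their calls, and no test was made: with 2 libraries against 2, an exact permutation test cannot pass a threshold of 0.05. The members and lists were chosen with earlier results of these data known. The alternatives were stricter limits, equal list lengths, other windows and overlaps, and leaving out each library, and RefSeq start sites were added after the data were seen. Merging and motif search were tested on simulated lists. Python 3.11.15, pandas 2.3.3, NumPy 2.4.6 and matplotlib 3.10.9 were used. A list holds only intervals above its own limit, so a gene without a call may still carry the mark.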

Additional observations from a re-analysis of the deposited data

How the results depend on the processing

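Of 224 values over 14 settings, 179 stayed within 1.5 times the reported count. Many of these were counts of 0 that stayed 0. A group's own count also cannot change when a library of another group is left out. The total is therefore not a measure of how stable the results are. At a -log10 q of 5 or more, members called in both libraries of a group numbered 1 for germ-free and 1 for conventional, and by promoter interval 0 and 1. Then 4 members had a promoter interval in any library and 8 merged regions were left. At a fold of 5 or more, 1 member had a promoter interval in both germ-free libraries. With each list cut to its 870 most significant intervals, 0 members were called in both germ-free and 1 in both conventional libraries, by any interval and by promoter interval alike, 3 were called in any library, 2 had a promoter interval in any, and 3 merged regions were left. The Sis pattern, called in both conventional and neither E. coli-monoassociated library, by any interval or promoter interval, or by promoter in neither germ-free library, counted 0 members at each of these 3 settings. The last also counted 0 with a promoter window of 2.5 kb. With RefSeq start sites, chosen after seeing the data, 1 member had a promoter interval in both germ-free and 0 in both E. coli-monoassociated libraries. These settings remove intervals or move windows by construction.

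Leaving out each library in turn, members called in all remaining libraries of a group ranged from 3 to 4 (germ-free), 1 to 3 (E. coli-monoassociated) and 3 to 7 (conventional), and by promoter interval from 2 to 3, 1 to 2 and 3 to 7. Members called in any library ranged from 4 to 7, likewise by promoter interval, and merged regions from 12 to 27, the lowest values without conventional replicate 2. Members called in conventional and not E. coli-monoassociated libraries ranged from 1 to 4 (promoter 1 to 5), and in conventional and not germ-free libraries from 0 to 3 (promoter 1 to 4). Members called in germ-free and not E. coli-monoassociated libraries ranged from 0 to 2 (promoter 0 to 1), and in germ-free and not conventional libraries from 0 to 1. The highest conventional values came without conventional replicate 1. No paired analysis was possible because the values come from no test and nothing in the labels ties replicate numbers across groups. The number of reads in each library is not known, and calls depend on it.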
